A study of Mus musculus with 10 samples.

Results

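The genes that encode the receptors for IL-10, IL-6, interferon-gamma, type I interferon and TNF were followed in single cell data of mouse microglia. The 10 genes, *Il10ra*, *Il10rb*, *Il6ra*, *Il6st*, *Ifngr1*, *Ifngr2*, *Ifnar1*, *Ifnar2*, *Tnfrsf1a* and *Tnfrsf1b*, were taken by name from the 18292 gene symbols listed, and all 10 were among the 12157 genes with enough counts to test. Microglia were sorted as live CD11b high, CD45 intermediate cells from C57BL/6 mice and sequenced as 10x Genomics 3' libraries, with 2 biological replicates in each of 5 groups. Adult microglia were isolated directly from adult brain. *In vitro* microglia were taken from the medium of mixed glial cultures of neonatal cortex after 3 weeks. Slice microglia came from brain slices of neonatal pups, without cerebellum, kept on membrane inserts for 1 day, 1 week or 3 weeks in medium with horse serum and added PDGF, and slices could be pooled for an isolation. The labels name no transgene and no agent given to the animals, and all cultured cells were of neonatal origin, so that age at isolation and culture cannot be told apart in a comparison with adult.

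Most of these receptors work as pairs, in which one chain binds the cytokine and the other carries the signal or is shared between several cytokines. The interferon and IL-10 receptors belong to the class II cytokine receptors and the IL-6 receptor to the class I family, and both signal through JAK kinases and STAT transcription factors, whereas the TNF receptors recruit adaptor proteins that lead to NF-kB or to cell death. In microglia, interferon-gamma and TNF are known for raising the inflammatory response and IL-10 for restraining it. *Ifnar2*, *Il10rb*, *Ifnar1* and *Ifngr2* are neighbours, the 4 protein-coding genes within 191.2 kb of chromosome 16 (chr16:91372783-91564007, GRCm38.p6).

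Libraries held 61 to 3799 cells and 385373 to 39689540 UMIs (unique molecular identifiers, counted transcripts). The fewest cells were in slice 1 week, with 148 and 61. All 10 microglia markers examined had UMIs in every library. Their summed share of UMIs was 5.16% and 5.10% in adult, 3.02% and 2.46% in slice 3 weeks, 1.55% and 1.80% in slice 1 week, 0.929% and 0.841% in slice 1 day and 1.17% and 1.00% *in vitro*. All 8 neutrophil markers had UMIs in both slice 1 day libraries and in slice 1 week replicate 1, with 0.761%, 2.24% and 4.02% of UMIs, against 0.0955% in slice 1 week replicate 2 and at most 0.000799% in the other 6 libraries. Border macrophage markers held 0.447% and 0.429% of UMIs *in vitro*, led by *Ms4a7*, *Pf4* and *Mrc1*, and at most 0.0452% elsewhere. The other listed markers did not share this order. As shares of UMIs, *Cd163* and *Lyve1* were lower in both *in vitro* libraries than in both slice 1 day libraries and slice 1 week replicate 1. *Cbr2* in slice 1 week replicate 2 lay between the *in vitro* libraries. The part of these other cells or states in the *in vitro* results was not tested, and in summed counts fewer cells of a type and less RNA per cell cannot be told apart.

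Of the 10 receptor genes, 8 differed among the 5 groups (edgeR quasi-likelihood F test, Benjamini-Hochberg adjusted over all genes), where 72.2% of all tested genes did. The exceptions were *Ifnar1* and *Tnfrsf1b*, with adjusted p of 0.579 and 0.193. Levels are given as CPM, UMIs per 1000000 of the library after TMM scaling. On this scale receptor genes fell in each of the 4 comparisons with adult and none rose, whereas without scaling for depth several were higher than in adult. *In vitro*, 5 of 10 were lower and 0 higher than in adult, where 28.5% of all genes were called lower and 22.4% higher (edgeR, FDR < 0.05 and fold change > 1.5). In slice 1 day, 6 of 10 were lower and 0 higher (all genes, 25.3% and 24.9%). In slice 1 week, 6 of 10 were lower and 0 higher (13.6% and 15.0%), and as after 1 day these were *Il6ra*, *Ifngr1*, *Il10ra*, *Il6st*, *Il10rb* and *Ifnar2*, in comparisons that share the adult libraries. In slice 3 weeks, 5 of 10 were lower and 0 higher (17.5% and 17.9%). At an unadjusted p below 0.05 the number higher was also 0 in each, with edgeR as with DESeq2.

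Against adult, fold changes of the 10 receptor genes had a log2 median of -0.59 *in vitro*, -0.92 after 1 day, -0.71 after 1 week and -0.62 after 3 weeks, beside -0.11, -0.06, -0.08 and -0.03 for all tested genes. All 8 culture libraries lay below both adult libraries for 5 of the 10, *Il10ra*, *Il10rb*, *Il6ra*, *Ifngr1* and *Ifngr2*, and for 20.4% of all genes. *In vitro* against slice 3 weeks, 1 of 10 was higher and 2 lower (all genes, 13.3% and 19.9%). From slice 1 day to slice 3 weeks, 3 of 10 rose and 0 fell (13.9% and 12.8%), and 0 were lower at an unadjusted p below 0.05 with edgeR or DESeq2.

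Adult cells were the shallowest, with medians of 3257 and 1858 UMIs per cell against 12858 and 13966 *in vitro* and 5266 to 8335 in the slices. When UMIs per cell were compared without scaling for depth, the median log2 fold change of all genes shifted by 2.15 *in vitro*, 1.55 after 1 day, 1.19 after 1 week and 1.08 after 3 weeks, each against adult. On that scale *Il6ra* and *Ifngr1* remained on the lower side of adult in all 4 comparisons, although no difference of *Ifngr1* passed, *Il10ra* was on the lower side in the slices and slightly above it *in vitro*, and most of the other differences turned upwards. The split of called genes was then 6 higher and 1 lower *in vitro*, 4 and 1 after 1 day, 1 and 0 after 1 week and 3 and 2 after 3 weeks, and it was 7 and 1 between *in vitro* and slice 3 weeks and 0 and 0 from slice 1 day to slice 3 weeks. The directions below are therefore relative to the rest of the transcriptome.

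**Figure D1:**
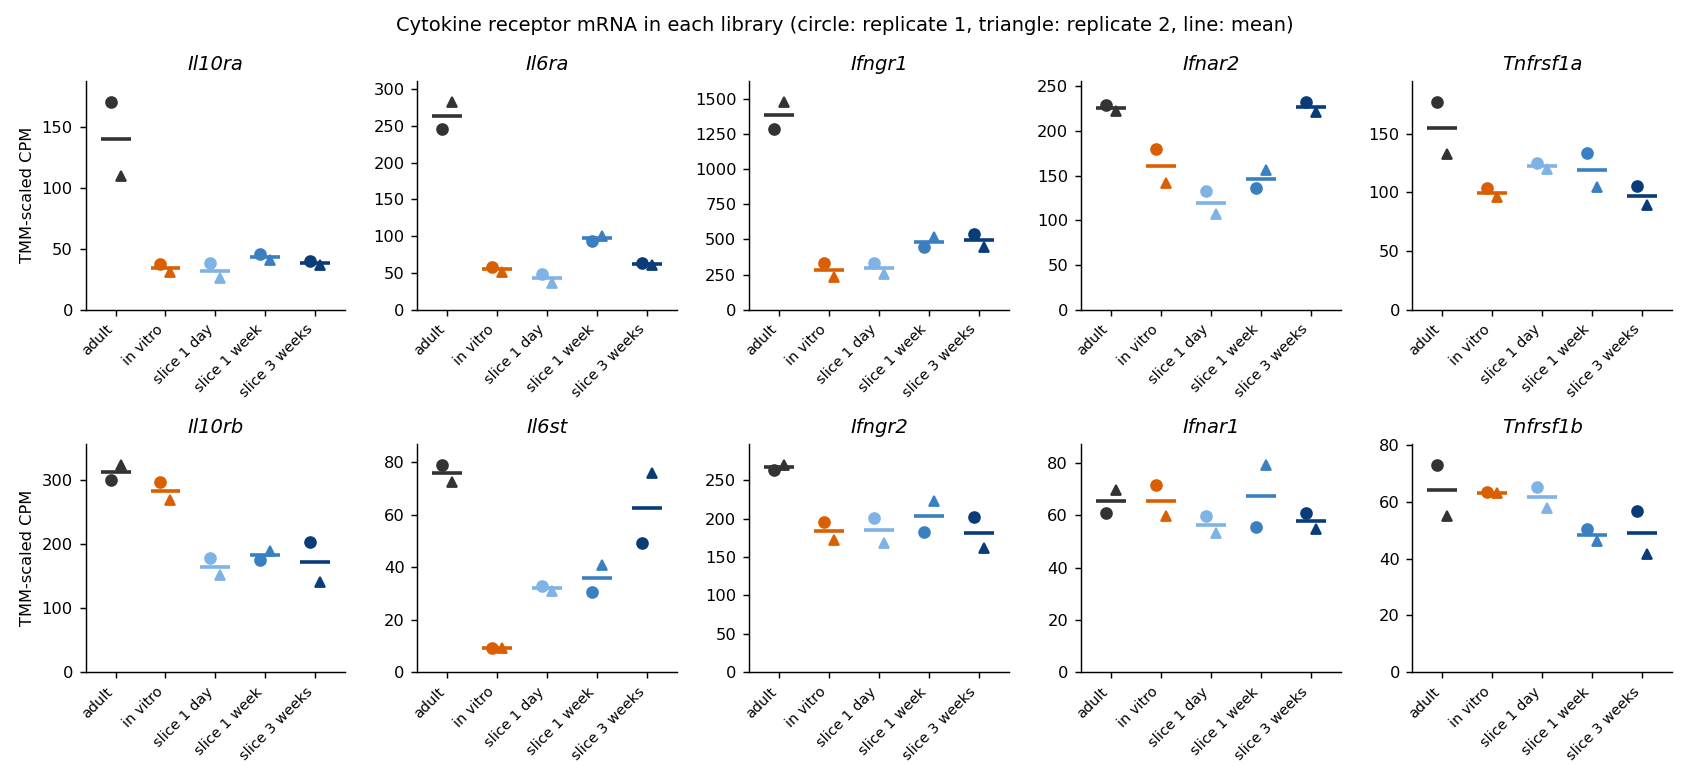
Level of each receptor gene (y axis, CPM after TMM scaling, from 0) in the 2 libraries of each group (x axis), with the group mean as a line. *Il10ra*, *Il6ra* and *Ifngr1* stood highest in both adult libraries, *Il6st* was lowest *in vitro*, and *Ifnar1* and *Tnfrsf1b* varied little between groups; without scaling for depth the order of most genes is different.

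**Figure D2:**
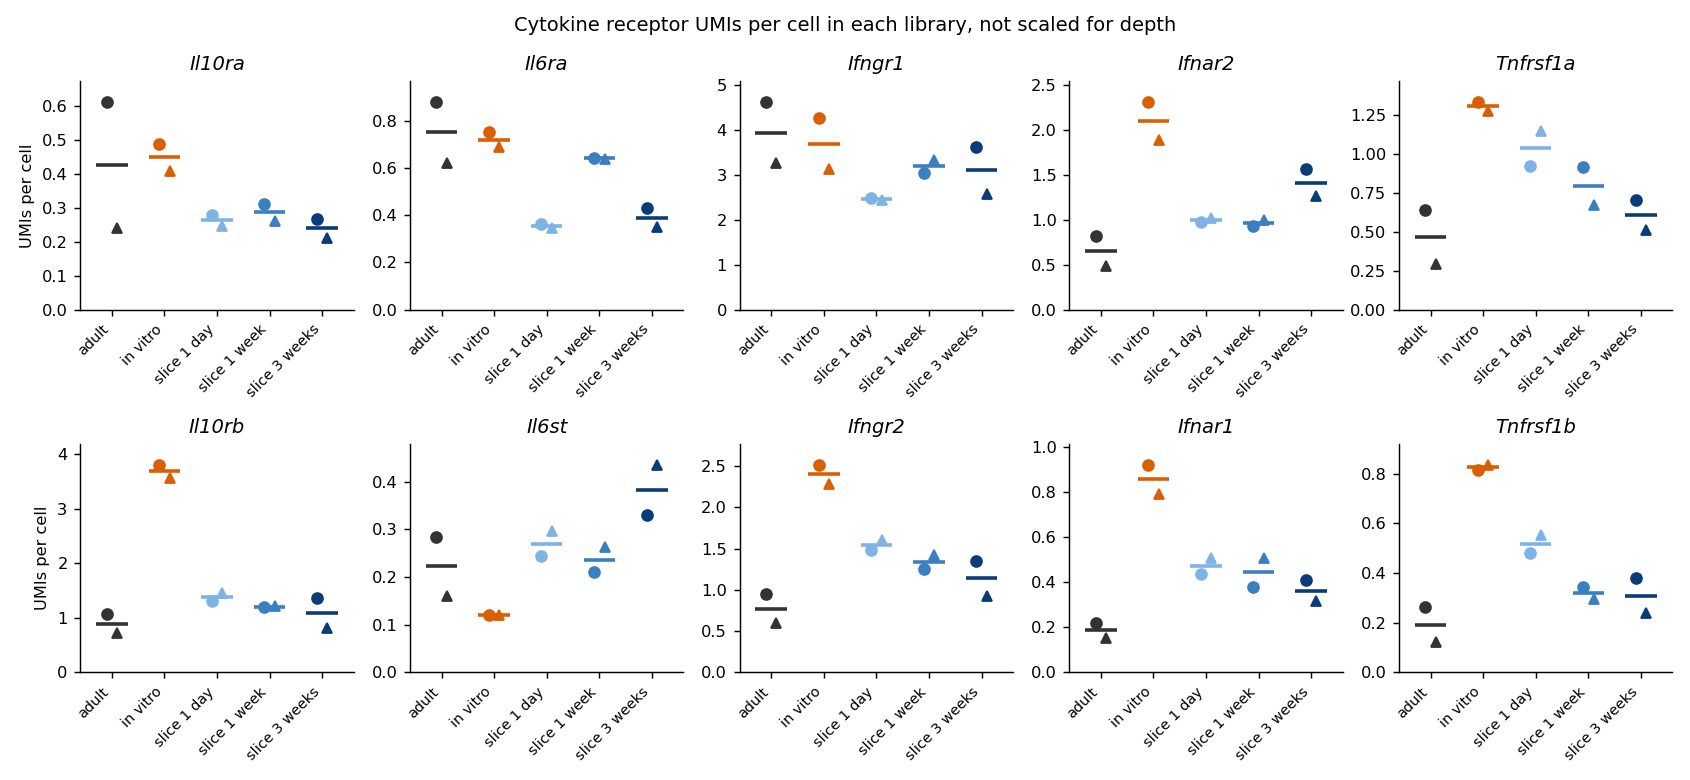
UMIs per cell of each receptor gene (y axis, not scaled for depth, from 0) in the 2 libraries of each group (x axis), with the group mean as a line. *In vitro* libraries, which had the most UMIs per cell, were highest for *Il10rb*, *Ifngr2*, *Ifnar1*, *Ifnar2*, *Tnfrsf1a* and *Tnfrsf1b*, while *Il6st* was lowest there.

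The interferon-gamma receptor binds its ligand through *Ifngr1* (chr10:19591949-19610229, all positions from the GRCm38.p6 annotation) and signals together with *Ifngr2* (chr16:91547059-91564007). *Ifngr1* was at 1286 and 1479 CPM in the adult libraries. It was at 330.1 and 235 CPM *in vitro*. In slices it was at 335 and 254 CPM after 1 day, 446 and 519 CPM after 1 week and 540.1 and 449 CPM after 3 weeks. Every culture library was thus below both adult libraries, slice 1 day and *in vitro* overlapped, and so did slice 1 week and slice 3 weeks. The fall against adult was 4.89-fold *in vitro* (log2 fold change -2.29 ± 0.22 SE, edgeR quasi-likelihood, adjusted p = 1.05e-05) and 4.70-fold after 1 day (-2.23 ± 0.22, edgeR adjusted p = 1.92e-05). It was 2.87-fold after 1 week (-1.52 ± 0.21) and 2.80-fold after 3 weeks (-1.48 ± 0.21), with edgeR adjusted p of 0.000545 and 0.000390. Without scaling for depth none of these 4 differences of *Ifngr1* passed, at -0.095 *in vitro*, -0.68 after 1 day, -0.31 after 1 week and -0.35 after 3 weeks (edgeR adjusted p of 0.818, 0.0964, 0.526 and 0.428). *Ifngr1* rose from 1 day to 3 weeks in slices (0.75 ± 0.21, edgeR adjusted p = 0.0215; without scaling 0.34, 0.578) and was lower *in vitro* than in slice 3 weeks (-0.81 ± 0.21, edgeR adjusted p = 0.0116; per cell without scaling it was on the higher side, at 0.25). Both of these smaller calls were lost when single libraries were left out: the rise without slice 1 day replicate 2 (0.57, adjusted p = 0.177) or slice 3 weeks replicate 1 (0.60, 0.0743), and the *in vitro* difference without *in vitro* replicate 2 (-0.51, 0.193) or slice 3 weeks replicate 1 (-0.58, 0.0744).

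*Ifngr2*, the signalling partner, had smaller differences. It was at 263 and 270.2 CPM in adult and between 162 and 223 CPM in all 8 culture libraries, which did not overlap with adult. Its log2 fold changes against adult were -0.54 ± 0.17 *in vitro*, -0.53 ± 0.17 after 1 day, -0.41 ± 0.18 after 1 week and -0.55 ± 0.17 after 3 weeks. With edgeR adjusted p of 0.0185, 0.0204, 0.107 and 0.0232, none of the 4 reached the 1.5-fold limit, and without scaling for depth the difference *in vitro* was 1.64 upwards. *Ifngr2* passed as lower with scaling by library size alone (-0.84, -0.65, -0.61 and -0.75 in the same order), without slice 1 day replicate 1 after 1 day (-0.67), and after 3 weeks without slice 3 weeks replicate 1 (-0.68, edgeR adjusted p = 0.0196) or in cells thinned to 1000 UMIs (-0.63, 0.0234). The ratio of *Ifngr1* to *Ifngr2* UMIs, which does not depend on scaling, was 4.89 and 5.47 in adult, 1.69 and 1.37 *in vitro*, 1.67 and 1.51 after 1 day, 2.44 and 2.33 after 1 week and 2.68 and 2.77 after 3 weeks. The ratio in each culture library was thus below both adult libraries, and it was higher in both slice 3 weeks libraries than in any *in vitro* or slice 1 day library. The ratios are given as descriptions and were not tested.

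The 250 bases before the start of *Ifngr1* and of *Ifngr2* are shown because the 2 chains of one receptor differed in how far they moved. They are from RefSeq (GRCm38.p6), which gave such a window for 8 of the 10 genes, on the plus strand at chr10:19591699-19591948 and chr16:91546809-91547058. Capitals mark matches on either strand to 4 motifs, the NF-kB consensus (GGG and CC with any 5 bases between), the STAT consensus TTCNNNGAA (GAS), the PU.1 core GAGGAA and the interferon response core (GAAA and GAAA with any 2 bases between).
*Ifngr1*: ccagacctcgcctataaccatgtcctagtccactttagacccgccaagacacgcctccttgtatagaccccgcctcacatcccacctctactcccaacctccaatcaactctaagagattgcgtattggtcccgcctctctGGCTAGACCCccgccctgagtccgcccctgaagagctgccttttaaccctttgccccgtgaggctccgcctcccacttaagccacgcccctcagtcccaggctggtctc
*Ifngr2*: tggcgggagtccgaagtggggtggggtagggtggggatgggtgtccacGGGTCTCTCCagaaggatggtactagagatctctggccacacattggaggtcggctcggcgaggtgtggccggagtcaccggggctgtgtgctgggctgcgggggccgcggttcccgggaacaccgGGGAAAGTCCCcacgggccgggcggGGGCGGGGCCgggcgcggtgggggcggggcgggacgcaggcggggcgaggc
*Ifngr1* held 1 NF-kB match, and *Ifngr2* held matches at 3 places, 1 of them on both strands with an overlap of all but 1 base. The NF-kB letters are found in 45.8% of all 32851 promoter windows of this length, GAS in 7.02%, PU.1 in 23.3% and the interferon response core in 2.98%. No GAS match was in either window. GC content was 59.2% for *Ifngr1* and 74.0% for *Ifngr2*, against a median of 52.4% over all windows.

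**Figure D3:**
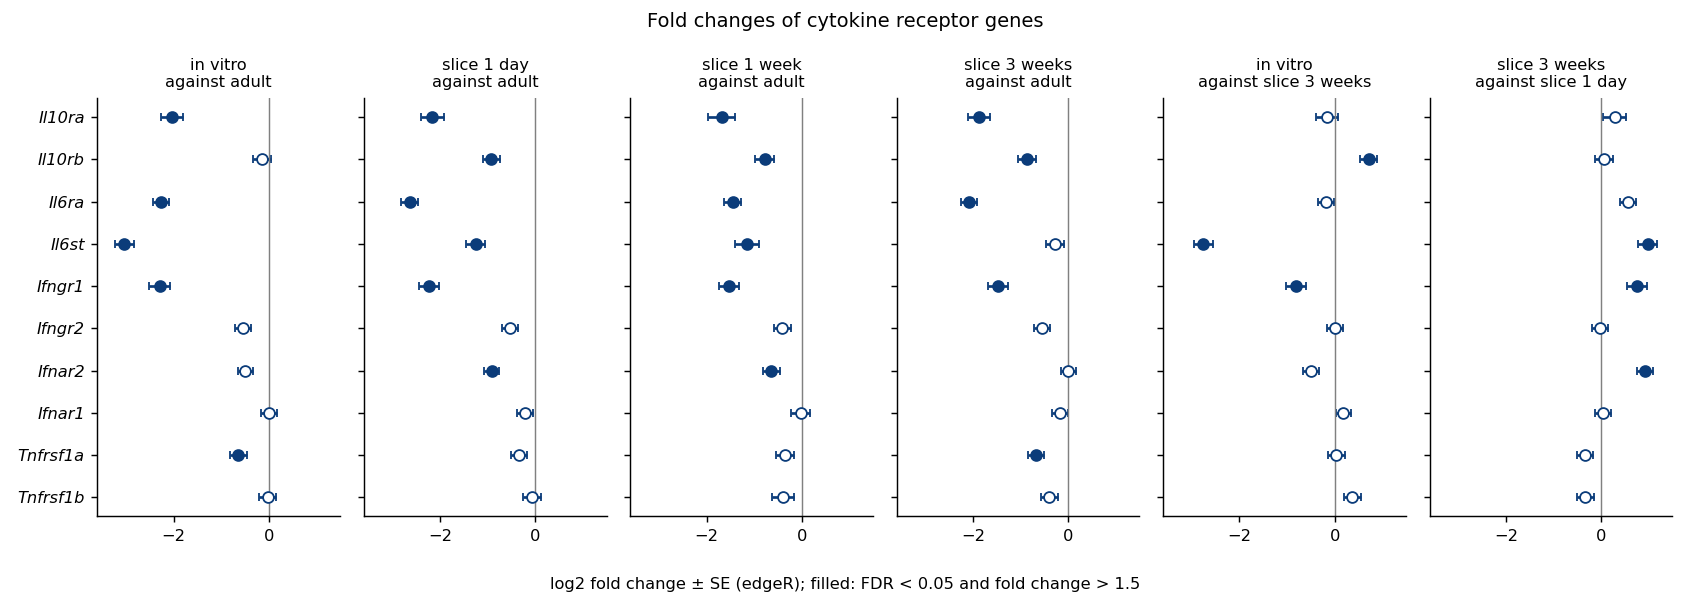
Log2 fold change with its SE (x axis, edgeR) of each receptor gene (y axis) in the 6 comparisons, in CPM after TMM scaling; filled points passed FDR < 0.05 and a fold change > 1.5. *Il6ra*, *Ifngr1* and *Il10ra* are filled and left of 0 in all 4 comparisons with adult, from -1.45 to -2.64, although without scaling for depth only *Il6ra* after 1 day and 3 weeks and *Il10ra* after 3 weeks pass.

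The IL-6 receptor consists of *Il6ra* (chr3:89869324-89913196), which binds IL-6, and *Il6st* (chr13:112464070-112506860), or gp130, the signalling chain that is also used by LIF, IL-11 and oncostatin M. *Il6ra* was at 245 and 283 CPM in adult. It was at 58.4 and 51.8 CPM *in vitro*, 49.0 and 36.3 CPM after 1 day, 93.9 and 99.8 CPM after 1 week and 64.0 and 60.9 CPM after 3 weeks. All 8 culture libraries were far below adult, and among them the 2 slice 1 week libraries were the highest. The fall was 4.79-fold *in vitro* (-2.26 ± 0.17, edgeR adjusted p = 2.06e-06), 6.24-fold after 1 day (-2.64 ± 0.17, 2.09e-06), 2.74-fold after 1 week (-1.45 ± 0.18, 0.000285) and 4.22-fold after 3 weeks (-2.08 ± 0.17, 1.28e-05). The calls were kept in every alternative that scaled for depth, with log2 fold changes between -1.36 and -2.86 over the 4 comparisons. Per cell without scaling, *Il6ra* passed after 1 day (-1.09) and 3 weeks (-0.95) and not *in vitro* (-0.06) or after 1 week (-0.23). From slice 1 day to slice 3 weeks its log2 fold change was 0.56 ± 0.17 (edgeR adjusted p = 0.0287), under the 1.5-fold limit, which it passed in 4 alternatives: without slice 1 day replicate 1 (0.78, 0.0188), without cells rich in neutrophil or monocyte markers (0.68, 0.0114), with the study label as a covariate (0.60, 0.0350) and with no filter on low counts (0.60, 0.0112).

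*Il6st* went another way. It was at 79.2 and 72.6 CPM in adult, 9.41 and 9.12 CPM *in vitro*, 33.0 and 31.0 CPM after 1 day, 30.6 and 40.9 CPM after 1 week and 49.2 and 75.9 CPM after 3 weeks. The *in vitro* libraries were the lowest, the early slices lay between, and slice 3 weeks replicate 2 was within the adult range while replicate 1 was below it. *Il6st* was 8.19-fold lower *in vitro* than in adult (-3.03 ± 0.20, edgeR adjusted p = 1.01e-06), the largest fold change of the 10 genes in any of the 6 comparisons. It was 2.38-fold lower after 1 day (-1.25 ± 0.20, 0.000416) and 2.22-fold lower after 1 week (-1.15 ± 0.26, edgeR adjusted p = 0.00714), whereas without scaling for depth these differences were above 0 (0.28 and 0.055). At 3 weeks the difference from adult was -0.27 ± 0.19 (edgeR adjusted p = 0.276), and without scaling for depth *Il6st* passed as higher (0.79, 0.0457). In slices *Il6st* rose from 1 day to 3 weeks (0.98 ± 0.20, edgeR adjusted p = 0.00486), and *in vitro* it was 6.79-fold lower than in slice 3 weeks (-2.76 ± 0.20, 5.87e-06). The *in vitro* differences from adult and from slice 3 weeks passed in all 21 alternatives, the one without scaling for depth included (-0.87 and -1.66). The 1 week call rests on 31 and 16 UMIs and was lost without slice 1 week replicate 1 (-0.86, edgeR adjusted p = 0.179) and with cells thinned to equal depth (-0.80, 0.318), and the rise from 1 day was lost without slice 1 day replicate 2 (0.94, 0.0559) and smaller without slice 3 weeks replicate 2 (0.64, 0.0156).

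The ratio of *Il6ra* to *Il6st* UMIs was 3.10 and 3.89 in adult and 6.20 and 5.68 *in vitro*, while it was 1.48 and 1.17 after 1 day, 3.06 and 2.44 after 1 week and 1.30 and 0.802 after 3 weeks. *In vitro* and slice 3 weeks, both cultured for 3 weeks, thus did not overlap, with the adult libraries between them and slice 1 day in the range of slice 3 weeks or just above. The 250 bases before each start are shown for this receptor because its chains moved in different ways. *Il6ra* is on the minus strand (chr3:89913197-89913446) and *Il6st* on the plus strand (chr13:112463820-112464069), with capitals as above.
*Il6ra*: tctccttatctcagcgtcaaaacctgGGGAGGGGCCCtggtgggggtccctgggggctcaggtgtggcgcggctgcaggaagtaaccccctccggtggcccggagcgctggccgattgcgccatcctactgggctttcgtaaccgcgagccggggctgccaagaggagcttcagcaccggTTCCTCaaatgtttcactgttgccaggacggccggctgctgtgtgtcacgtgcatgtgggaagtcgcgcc
*Il6st*: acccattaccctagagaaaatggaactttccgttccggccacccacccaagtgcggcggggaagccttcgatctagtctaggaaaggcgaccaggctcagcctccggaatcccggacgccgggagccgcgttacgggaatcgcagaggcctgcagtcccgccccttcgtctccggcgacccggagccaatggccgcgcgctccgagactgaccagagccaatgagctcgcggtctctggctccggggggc
*Il6ra* held 1 PU.1 match and 2 overlapping NF-kB matches, and *Il6st* held none of the 4 motifs.

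**Figure D4:**
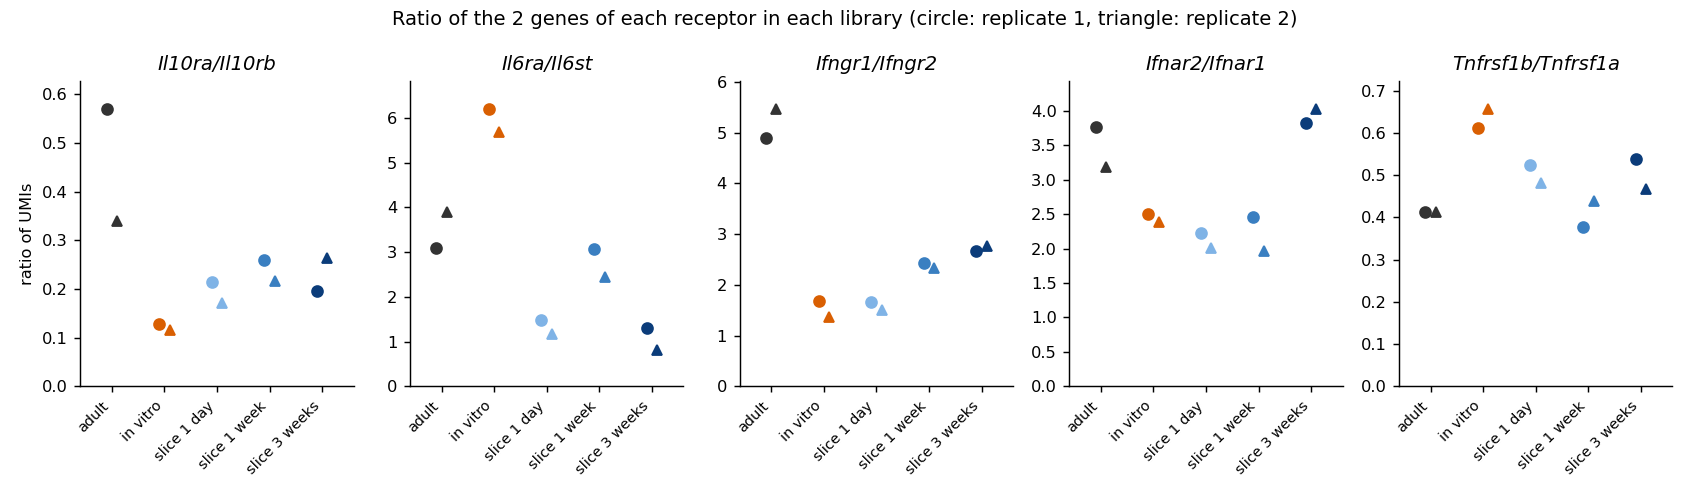
Ratio of UMIs of the 2 genes of each receptor (y axis, from 0) in the 2 libraries of each group (x axis); the ratio is of counts of different transcripts and only its change between groups has a meaning. *Ifngr1*/*Ifngr2* was 4.89 and 5.47 in adult and 1.37 to 2.77 in culture, and *Il6ra*/*Il6st* was highest *in vitro*.

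The IL-10 receptor pairs the ligand-binding *Il10ra* (chr9:45253837-45269149) with *Il10rb* (chr16:91406157-91425834), a chain shared with the receptors for IL-22 and the type III interferons. *Il10ra* was at 171 and 110.0 CPM in adult, a wide spread between replicates, and at 37.9 and 30.9 CPM *in vitro*. In slices it was at 38.0 and 25.9 CPM after 1 day, 45.5 and 40.9 CPM after 1 week and 39.8 and 36.9 CPM after 3 weeks. The 4 culture groups lay close together, all below adult. The fall was 4.09-fold *in vitro* (-2.03 ± 0.23), 4.47-fold after 1 day (-2.16 ± 0.24), 3.21-fold after 1 week (-1.68 ± 0.28) and 3.67-fold after 3 weeks (-1.87 ± 0.23), with edgeR adjusted p of 3.64e-05, 4.53e-05, 0.00159 and 0.000166. Leaving out adult replicate 1 or any other single library ended none of these 4 calls. Per cell without scaling, only the fall after 3 weeks passed (-0.84), and *in vitro* the sign turned (0.070).

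*Il10rb* was at 299 and 324 CPM in adult and at 296 and 268 CPM *in vitro*, just below. It was at 178 and 152 CPM after 1 day, 175 and 189 CPM after 1 week and 203 and 140.4 CPM after 3 weeks. All 6 slice libraries were thus below the 4 adult and *in vitro* libraries. Against adult the log2 fold change was -0.14 ± 0.18 *in vitro* (edgeR adjusted p = 0.526), and *Il10rb* fell by 0.92 ± 0.18 after 1 day, by 0.78 ± 0.19 after 1 week and by 0.86 ± 0.18 after 3 weeks, with edgeR adjusted p of 0.00178, 0.0123 and 0.00398, whereas without scaling for depth these 3 were above 0 (0.63, 0.43 and 0.27) and did not pass. *Il10rb* was higher *in vitro* than in slice 3 weeks (0.72 ± 0.18, edgeR adjusted p = 0.0107), a call lost without *in vitro* replicate 1 (0.72, 0.0589) or slice 3 weeks replicate 2 (0.54, 0.0413). The 1 week call was lost without adult replicate 2 (-0.73, edgeR adjusted p = 0.0525) or slice 1 week replicate 1 (-0.69, 0.147), and the 3 weeks call without slice 3 weeks replicate 2 (-0.56, 0.0339). The ratio of *Il10ra* to *Il10rb* UMIs was 0.570 and 0.340 in adult, 0.128 and 0.115 *in vitro* and between 0.170 and 0.263 in the slices, so that the *in vitro* libraries were the lowest.

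The type I interferon receptor is built from *Ifnar2* (chr16:91372783-91405589), the chain with high affinity for the interferons, and *Ifnar1* (chr16:91485032-91510523). *Ifnar1* was at 60.9 and 69.7 CPM in adult and between 53.2 and 79.3 CPM in the 8 culture libraries, around the adult values. Its log2 fold changes against adult were 0.01 ± 0.16 *in vitro*, -0.22 ± 0.17 after 1 day, -0.02 ± 0.20 after 1 week and -0.18 ± 0.17 after 3 weeks, with edgeR adjusted p between 0.297 and 0.984. No difference was detectable at this depth, although without scaling *Ifnar1* was higher than in adult in all 4 (0.95 to 2.20).

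*Ifnar2* was at 229 and 222 CPM in adult, 179 and 142 CPM *in vitro*, 132 and 107 CPM after 1 day, 136 and 156 CPM after 1 week and 233 and 221 CPM after 3 weeks. It was lowest after 1 day, and the slice 3 weeks libraries were on either side of the adult ones. *Ifnar2* fell 1.89-fold after 1 day (-0.92 ± 0.16, edgeR adjusted p = 0.000930) and 1.56-fold after 1 week (-0.64 ± 0.18, 0.0200), and was 0.01 ± 0.16 from adult after 3 weeks (0.986); without scaling for depth the first 2 were above 0 and did not pass (0.61 and 0.56), and the third passed as higher (1.11, edgeR adjusted p = 0.00687). It rose from 1 day to 3 weeks (0.92 ± 0.16, edgeR adjusted p = 0.00265), a call kept in all 10 fits that left out a library. The 1 week call, close to the 1.5-fold limit, was kept in 13 of 20 alternatives. Without adult replicate 1, adult replicate 2, slice 1 day replicate 2 or slice 1 week replicate 1 it did not pass, with log2 fold changes of -0.57, -0.67, -0.58 and -0.50. *In vitro* it was -0.49 ± 0.16 against adult and -0.50 ± 0.16 against slice 3 weeks (edgeR adjusted p of 0.0248 and 0.0338), both under 1.5-fold, and both passed with scaling by library size alone (-0.80 and -0.60). The ratio of *Ifnar2* to *Ifnar1* UMIs was 3.76 and 3.18 in adult and 3.83 and 4.03 in slice 3 weeks, and between 1.97 and 2.51 in the other 6 libraries.

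TNF is bound by *Tnfrsf1a* (TNFR1, chr6:125349723-125362483), which carries a death domain, and by *Tnfrsf1b* (TNFR2, chr4:145212368-145246870), which lacks one. *Tnfrsf1a* was at 177 and 133 CPM in adult. It was at 103 and 95.8 CPM *in vitro*, 125 and 119.8 CPM after 1 day, 133 and 105 CPM after 1 week and 105.0 and 89.1 CPM after 3 weeks. Of the 8 culture libraries, 7 were below both adult libraries, and slice 1 week replicate 1 was level with adult replicate 2. *Tnfrsf1a* fell 1.56-fold *in vitro* (-0.64 ± 0.17, edgeR adjusted p = 0.00921) and 1.60-fold after 3 weeks (-0.68 ± 0.17, 0.0106), and without scaling for depth both turned sign (1.49 and 0.39). The *in vitro* call was kept in 4 of 21 alternatives: without adult replicate 1, for example, it was -0.32 (edgeR adjusted p = 0.196), and 8 of the 10 fits that left out a library lost it, at -0.32 to -0.57. The 3 weeks call was lost without adult replicate 1 (-0.40, edgeR adjusted p = 0.145) or slice 3 weeks replicate 2 (-0.50, 0.0823).

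*Tnfrsf1b* was at 73.1 and 54.9 CPM in adult, 63.3 and 63.0 CPM *in vitro*, 65.3 and 57.8 CPM after 1 day, 50.4 and 46.1 CPM after 1 week and 56.7 and 41.6 CPM after 3 weeks. The adult replicates spanned most of this range. Its log2 fold changes against adult were between -0.02 and -0.39, with edgeR adjusted p of 0.110 or more, and without scaling for depth they were above 0 (0.68 to 2.11). After 3 weeks *Tnfrsf1b* passed as lower without slice 3 weeks replicate 1 (-0.59, edgeR adjusted p = 0.0244) or with scaling by library size alone (-0.59, 0.0240). *In vitro* against slice 3 weeks it was at 0.37 ± 0.18 (edgeR adjusted p = 0.128), and it passed as higher without slice 3 weeks replicate 1 (0.69, 0.0119) or with the study label as a covariate (0.59, 0.00675). The ratio of *Tnfrsf1b* to *Tnfrsf1a* UMIs was 0.413 in both adult libraries, 0.612 and 0.657 *in vitro*, 0.523 and 0.482 after 1 day, 0.378 and 0.439 after 1 week and 0.539 and 0.467 after 3 weeks. The *in vitro* libraries were the highest, and those of slice 1 week lay on either side of adult.

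Promoter windows were also searched for the other 4 genes that had one. *Tnfrsf1b* held matches to all 4, *Tnfrsf1a* to NF-kB and GAS, *Ifnar2* to GAS and *Ifnar1* to PU.1.

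Replicate 1 of adult and of slice 3 weeks carried 1 study label and the other 8 libraries another, so the slice 3 weeks comparison with adult can be read within each label. From adult to slice 3 weeks, *Il6ra* differed by -1.94 and -2.21 on the log2 scale of the CPM within the first and the second label, *Il10ra* by -2.10 and -1.58, and *Ifngr1* by -1.25 and -1.72. These 3 genes were lower in slice 3 weeks within both labels. *Il10rb* was at -0.56 and -1.21, *Tnfrsf1a* at -0.75 and -0.58, *Ifngr2* at -0.38 and -0.74 and *Tnfrsf1b* at -0.37 and -0.40. *Il6st* was at -0.69 within the first label and 0.06 within the second, *Ifnar1* at -0.00 and -0.35, and *Ifnar2* at 0.02 and -0.01. With the label as a covariate, 5 genes were called in this comparison, as without it.

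In the slice 1 day and slice 1 week libraries, cells rich in neutrophil markers (over 2% of their UMIs) were 67 of 518 and 110 of 1014 after 1 day and 24 of 148 and 1 of 61 after 1 week. Neutrophil markers also held 0.0585%, 0.435%, 0.567% and 0.00827% of the UMIs of the other cells of these libraries. In the rich cells of the 3 libraries with over 20 of them, *Il6st* was at 5.88, 8.05 and 6.77 CPM (library size), from 1, 6 and 1 UMIs, against 37.2, 33.8 and 32.6 CPM in cells rich in neither neutrophil nor monocyte markers. *Il10ra* was at 23.5, 4.03 and 0 CPM in the rich cells, from 4, 3 and 0 UMIs, and at 37.5, 26.4 and 50.0 CPM in the others; the 0 allows up to 25.0 CPM by its 95% Poisson limit, which covers counting error only. *Ifngr1* was at 441 and 180 CPM in the rich cells after 1 day and 298 and 238 CPM in the others, with opposite order in the 2 libraries, and at 108 and 468 CPM in slice 1 week replicate 1. When cells rich in neutrophil or monocyte markers were left out, an alternative chosen after seeing the data, 6 genes were called after 1 day and 5 after 1 week, where *Ifnar2* no longer passed (-0.52, edgeR adjusted p = 0.0388), and 5 after 3 weeks.

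In slice 3 weeks, receptor levels differed between cells with and without a UMI of *P2ry12*, a microglial ADP receptor that marks the homeostatic state. Each cell was first thinned to 1000 UMIs, and 557 of 1153 cells of replicate 1 and 1564 of 3740 of replicate 2 then had one. *Il6ra* was at 88.0 and 110.0 CPM in cells with a *P2ry12* UMI and at 36.9 and 45.5 CPM in cells without, a log2 ratio of 1.25 and 1.27. *Il6st* was at 73.6 and 105 CPM against 28.5 and 63.4 CPM (1.37 and 0.73). *Il10ra* was at 59.2 and 58.2 CPM against 31.9 and 31.7 CPM (0.89 and 0.88), and *Ifngr1* at 654 and 650.3 CPM against 453 and 373 CPM (0.53 and 0.80). For the other 6 genes the log2 ratio lay between -0.32 and 0.36. In both slice 3 weeks libraries *Il6ra*, *Il6st*, *Il10ra* and *Ifngr1* were thus higher in cells with *P2ry12*; cells are not replicates, and no test was made over the 2 libraries. *In vitro* only 128 and 111 cells had a *P2ry12* UMI, with log2 ratios of 0.60 and 0.64 for *Ifngr1*, 0.20 and 0.57 for *Il6ra* and -0.30 and -0.17 for *Il10ra*, and *Il6st* had 1 and 0 UMIs in them. In slice 1 day, with 68 and 75 such cells, the log2 ratios were 0.83 and 0.52 for *Ifngr1*, 0.95 and 0.23 for *Il6ra*, 1.29 and 0.28 for *Il10ra* and 0.22 and 0.061 for *Il6st*. These smaller sets of cells held 9 UMIs or fewer of *Il6ra*, *Il10ra* and *Il6st* in each library, too few to say whether these genes differed there.

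Cells with a UMI of *Gpnmb*, a lysosomal glycoprotein of phagocytic macrophages, were fewer, 123 and 281 after thinning. *Ifngr1* was lower in them, at 382 and 313 CPM against 569.9 and 503 CPM in cells without (log2 ratio -0.58 and -0.68). *Il10ra* was at 16.3 and 17.8 CPM, from only 2 and 5 UMIs, against 48.5 and 44.8 CPM. *Il6ra* and *Tnfrsf1a* were also on the lower side in both libraries, with log2 ratios of -0.37 and -0.58 and of -0.51 and -0.78, from 6 and 14 and from 10 and 15 UMIs. *Tnfrsf1b* was at 65.0 and 89.0 CPM against 52.4 and 31.8 CPM, on the higher side in both libraries, from 8 and 25 UMIs. *Il6st* was at -2.77 and -0.45, from 1 and 17 UMIs, and the log2 ratios of *Il10rb*, *Ifngr2*, *Ifnar1* and *Ifnar2* lay between 0.044 and 0.55. *In vitro*, where 671 and 1029 cells had a *Gpnmb* UMI, the log2 ratio of *Ifngr1* was -0.66 and -0.31 and that of *Tnfrsf1b* -0.19 and 0.46.

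**Figure D5:**
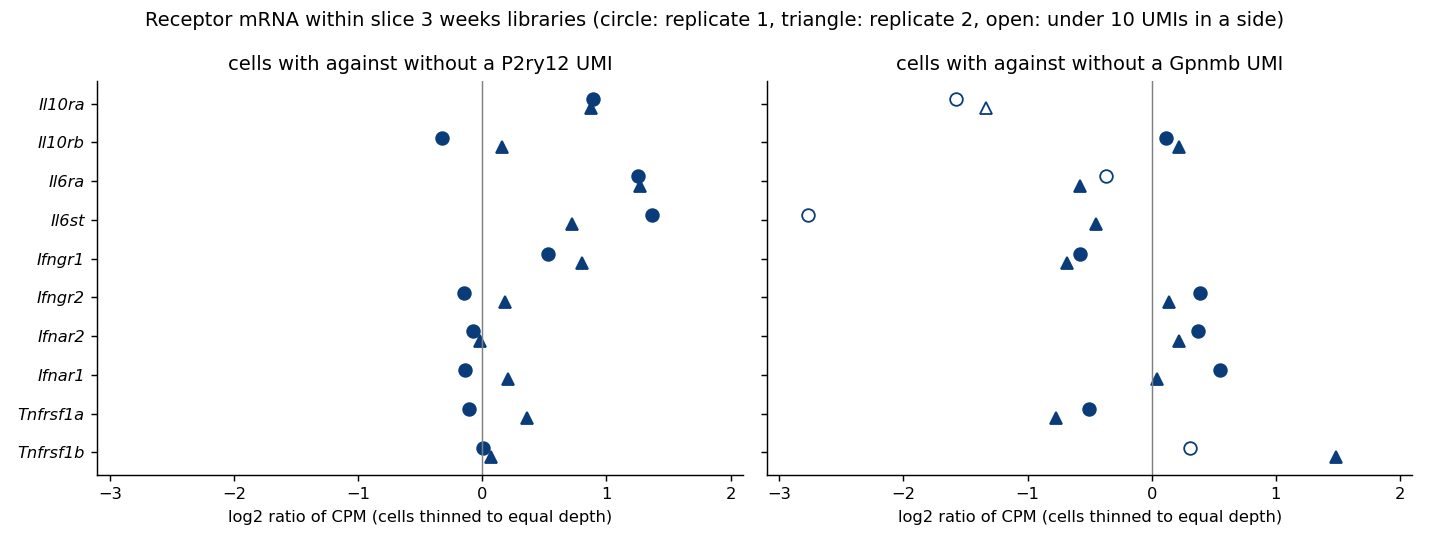
Log2 ratio of CPM (x axis) between cells with and cells without a UMI of *P2ry12* (left) or *Gpnmb* (right) for each receptor gene (y axis) in the 2 slice 3 weeks libraries, cells thinned to 1000 UMIs. With *P2ry12*, *Il6ra*, *Il6st*, *Il10ra* and *Ifngr1* lie at 0.53 to 1.37 and the other genes at -0.32 to 0.36; open points rest on under 10 UMIs on a side.

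The ligands of these receptors were scarce in the sorted cells, and 2 of the 8 listed had enough counts to test. *Il6* had 148 and 93 UMIs in adult, 0 and 0 *in vitro*, 7 and 16 after 1 day, 1 and 0 after 1 week and 26 and 186 after 3 weeks. *Il6* was at least 250.5-fold lower *in vitro* than in adult, taking 3 UMIs over both *in vitro* libraries as the limit. It fell after 1 day (-2.73 ± 0.49, edgeR adjusted p = 0.00123) and after 1 week, there from 1 and 0 UMIs (edgeR adjusted p = 0.0206), and rose from 1 day to 3 weeks (1.87 ± 0.49, 0.0194). *Tnf* was at 2.49 and 2.83 CPM in adult, 10.1 and 5.95 CPM *in vitro*, 25.9 and 37.0 CPM after 1 day, 14.8 and 2.56 CPM after 1 week and 39.8 and 12.8 CPM after 3 weeks. *Tnf* rose *in vitro*, after 1 day and after 3 weeks (1.60 ± 0.56, 3.59 ± 0.57 and 3.28 ± 0.57, edgeR adjusted p of 0.0324, 0.000435 and 0.00125), and both *Il6* and *Tnf* were called lower *in vitro* than in slice 3 weeks. *Il10* had 59 and 40 UMIs *in vitro*, 1 and 2 after 1 day and 0 in the other 6 libraries, and was at least 10.6-fold higher *in vitro* than in adult, with 3 UMIs over both adult libraries as the limit. *Ifnb1*, *Il11* and *Lta* had at most 2 UMIs in a group, and *Ifng* and *Il22* were not analysed here.

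Among 31 tested genes of the kinases, STATs, adaptors and feedback regulators of these receptors, 5 were higher and 10 lower *in vitro* than in adult (16.1% and 32.3%, beside 22.4% and 28.5% of all tested genes). The numbers were 5 and 11 after 1 day (16.1% and 35.5%, all genes 24.9% and 25.3%), 1 and 6 after 1 week (3.23% and 19.4%, all genes 15.0% and 13.6%) and 1 and 9 after 3 weeks (3.23% and 29.0%, all genes 17.9% and 17.5%). Without cells rich in neutrophil or monocyte markers they were 6 and 12 after 1 day (19.4% and 38.7%). *Socs1*, an inhibitor of JAK signalling, was at 8.28 and 8.24 CPM in adult and at 0.899 and 1.09 CPM *in vitro* (-3.04 ± 0.45, edgeR adjusted p = 0.000232). It was also called lower after 1 day (-1.34) and 3 weeks (-2.11), and did not pass after 1 week (-1.26). *Socs3*, which inhibits gp130 signalling, was at 24.5 and 37.5 CPM in adult, fell to 8.25 and 7.41 CPM *in vitro* (-1.97 ± 0.23, edgeR adjusted p = 4.23e-05) and rose to 87.0 and 70.9 CPM after 1 day (1.35 ± 0.22, 0.000537). *Traf5*, an adaptor of the TNF receptor family, was lower in all 4 cultures (-1.98 ± 0.19, -2.51 ± 0.22, -1.17 ± 0.28 and -1.71 ± 0.20). *Rhbdf2*, which guides the protease that sheds TNF and its receptors, was higher in all 4 (1.46 ± 0.28, 1.99 ± 0.29, 1.64 ± 0.45 and 1.53 ± 0.28), with edgeR adjusted p of 0.0185 or less for both genes. *Traf1* was at 0.146 and 0 CPM in adult and 21.5 and 17.1 CPM after 1 day. *Irf9* was called lower in the slices (-1.12, -1.32 and -0.76 in order of time) and *Traf2* *in vitro* (-0.78), after 1 week (-1.24) and after 3 weeks (-0.70).

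Of 33 tested genes for other cytokine receptors, 7 were higher and 12 lower *in vitro* than in adult (21.2% and 36.4%, beside 22.4% and 28.5% of all tested genes). They were 15 and 9 after 1 day (45.5% and 27.3%, all genes 24.9% and 25.3%), where neutrophil markers held 0.761% and 2.24% of the UMIs of the 2 libraries. Without cells rich in neutrophil or monocyte markers the numbers after 1 day were 14 and 10 of 32 tested (43.8% and 31.2%). They were 5 and 7 after 1 week (15.2% and 21.2%, all genes 15.0% and 13.6%) and 8 and 8 after 3 weeks (24.2% and 24.2%, all genes 17.9% and 17.5%). *Tgfbr1*, the TGF-beta receptor chain, fell from 637 and 666 CPM in adult to 47.8 and 45.5 CPM *in vitro* (-3.80 ± 0.20, edgeR adjusted p = 2.21e-07). It was also called lower in the slices (-3.16, -2.38 and -2.05 in order of time). *Il7r* fell in all 4 cultures, by 1.56 to 4.76 on the log2 scale, with the largest value after 1 week, from 1 and 0 UMIs. *Il3ra*, the IL-3 receptor chain, was at 4.32 and 4.12 CPM in adult and at 16.8 to 32.8 CPM in the 8 culture libraries, and was called higher in all 4. *Il1r2*, a decoy receptor for IL-1, was at 81.3 and 42.2 CPM after 1 day, 14.8 and 2.56 CPM after 1 week and 0.293 and 0.386 CPM in adult. Neutrophil markers held 0.761% and 2.24% of UMIs after 1 day and 4.02% in slice 1 week replicate 1, the reverse of the order of *Il1r2*. Without the rich cells the log2 fold change of *Il1r2* after 1 day went from 7.50 to 4.85 (edgeR adjusted p = 0.00113). *Tnfrsf9*, the 4-1BB receptor, was at 30.9 and 17.6 CPM after 1 day, at 2.07 and 40.4 CPM after 3 weeks, and at or below 0.146 CPM in adult and *in vitro*. *Fas* was called higher in all 4 cultures (2.24, 2.39, 2.57 and 1.14 on the log2 scale) and *Csf3r* lower in all 4 (-2.93, -1.70, -1.35 and -1.29). After 1 day, *Fas* and *Csf3r* were at 2.03 and -2.31 without the rich cells. *Il1rl1* (-3.73) and *Tnfrsf26* (3.02) were called *in vitro* and did not pass in the slices, and both were called *in vitro* against slice 3 weeks (-2.91 and 3.52). *Il18rap* was called higher after 1 day (3.93, and 2.89 without the rich cells) and 3 weeks (2.22). *Tnfrsf10b* was called higher after 1 day and 3 weeks, at 1.57 and 1.34 CPM and at 0.647 and 0.745 CPM, against 0.146 and 0.129 CPM in adult, from 2 and 1 UMIs.

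The genes whose levels were most like those of a receptor over the 10 libraries were sought for the 3 with the highest F values, *Il6ra*, *Il6st* and *Ifngr1* (F of 93.8, 63.4 and 45.6), among 3907 genes. Pearson's r of log2 CPM was 0.988, 0.982 and 0.979 for *Il6ra* with *Glul*, *Nfkb1* and *Fgd2*. For *Il6st* it was 0.992, 0.987 and 0.981 with *Golm1*, *Lag3* and *Mtdh*. For *Ifngr1* it was 0.991, 0.987 and 0.987 with *Snn*, *Tpst2* and *Abi3*. These are descriptions over libraries that fall into 5 groups and share their scaling.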

How the data were processed

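Single cell RNA sequencing of sorted microglia was analysed in 10 libraries (5 groups, 2 libraries each). The deposited values were counts, UMIs of each gene in each barcode, in 1 table for every library, made by the authors with Cell Ranger (1.3.0, genome mm10, per the submitters' processing notes), which aligned reads, called cells and collapsed UMIs; a gene missing from a table was taken as 0. Of 19637 barcodes, 19059 were kept (mitochondrial UMIs up to 5%, at least 400 genes, at most 30000 UMIs) and 578 removed. No doublet caller was run. Barcode strings found in more than 1 library numbered 218, with at most 21 shared by 2 libraries. No other per-sample columns were present.

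Counts were summed per library and fitted with edgeR 4.0.16 in R 4.3.3 (TMM, filterByExpr with a minimum of 10 counts, glmQLFit and glmQLFTest) in 1 model of the 5 groups, with a biological coefficient of variation of 18.3%. p-values were adjusted by Benjamini and Hochberg over 12157 genes, and genes were called at FDR < 0.05 and fold change > 1.5. DESeq2 1.42.0 was an alternative. Errors are SEs of fitted log2 fold changes unless stated. The script was tested on simulated data. All receptor genes are named; ligands are named in full, and of the other lists the called genes with the 3 (signalling) or 4 (other receptors) largest log2 fold changes in each comparison with adult. The receptor genes, lists and cell splits were chosen with earlier results of these data known. Promoters and positions are from RefSeq tables of GRCm38.p6. Protein sequences were not used here. Intervals cover counting error only.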

Additional observations from a re-analysis of the deposited data

How the results depend on the processing

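Each count and each fold change of the 10 receptor genes was recomputed under 21 alternatives (20 for slice 1 week). Without scaling for depth, which shifts all genes, the number of called genes was 7 *in vitro*, 5 at 1 day, 1 at 1 week and 5 at 3 weeks, each against adult. It was 8 between *in vitro* and slice 3 weeks and 0 from slice 1 day to 3 weeks (edgeR; 2 at an unadjusted p below 0.05). There, 24 fold changes called in either setting turned sign. *In vitro* against adult these were *Il10ra* 0.070, *Il10rb* 2.04, *Ifngr2* 1.64, *Ifnar2* 1.68, *Tnfrsf1a* 1.49 and *Tnfrsf1b* 2.11. At 1 day they were *Il10rb* 0.63, *Il6st* 0.28, *Ifngr2* 1.00, *Ifnar1* 1.35, *Ifnar2* 0.61, *Tnfrsf1a* 1.15 and *Tnfrsf1b* 1.43. At 1 week they were *Il10rb* 0.43, *Il6st* 0.055, *Ifnar1* 1.22 and *Ifnar2* 0.56, and at 3 weeks *Il10rb* 0.27, *Il6st* 0.79, *Ifnar1* 0.95 and *Tnfrsf1a* 0.39. *In vitro* against slice 3 weeks they were *Il10ra* 0.91, *Il6ra* 0.89 and *Ifngr1* 0.25. Leaving out 1 library gave 4 to 5 called genes *in vitro*, 6 to 7 at 1 day, 3 to 6 at 1 week (3 without slice 1 week replicate 1), 3 to 7 at 3 weeks (3 without slice 3 weeks replicate 2), 2 to 3 *in vitro* against slice 3 weeks and 1 to 4 from 1 day to 3 weeks (1 without slice 1 day replicate 2), and 6 to 9 among the 5 groups; a group left with 1 library is assumed to vary like the others. The other alternatives stayed within 1.5 times of these counts, library size alone (7, 7, 7, 7, 4 and 3) included. With the replicate number as a block, the counts were 5, 6, 6, 5, 3 and 3, with 8 among the 5 groups. The block thus changed no count. The correlation of same-numbered deviations from the group means was between -0.26 and 0.36 over the 10 pairs of groups. With 2 libraries per group these values cannot tell whether the numbers pair the libraries. The planned removal of cells by marker UMIs was not run, since it left no cell in 2 libraries, and a rule on marker shares took its place after the data were seen. Slice 1 week, with 61 and 148 cells, limits what can be called there, and 2 libraries per group limit all comparisons.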
